A study of Danio rerio with 18 samples.

Results

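Cytosolic ribosomal protein genes encode the proteins that are built, with ribosomal RNA, into the ribosomes of the cytoplasm. They were taken here as all genes whose symbol is that of a large subunit (RPL), small subunit (RPS) or stalk (RPLP) protein, read without regard to capitals and leaving out the RPS6 kinases, which gave 79 of the 32520 genes measured. Of these, 42 were large subunit genes, 34 were small subunit genes and 3 were genes of the acidic stalk (RPLP0, RPLP1 and rplp2). Members that share a symbol, such as the pairs RPL5 and RPS26 (8 genes in all), are told apart by Ensembl identifier. Symbols are printed as the gene name table gave them, with capitals where it gave the name of the human gene. RNA was sequenced from intestines dissected from zebrafish larvae at 5 days and from kidneys at 7 days, all of the AB strain, in 18 libraries that fall into 6 groups of 3. Both tissues came from wild type raised conventionally (CV), from wild type raised germ-free (GF), whose embryos were washed, held in antibiotic medium and then kept sterile, and from chd8-/- fish, mutant in the gene of the chromatin remodeller Chd8. The labels name no allele. The wild-type parents mated in autoclaved and the chd8-/- parents in circulating system water, so genotype, rearing and any batch cannot be told apart. Organs of several embryos were pooled (by the labels 30 wild-type and 40 chd8-/- embryos for intestine, and 50 wild-type and about 70 chd8-/- embryos for kidney, where it is not said if this is per library), and tissue and age go together.

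A ribosome holds most of its proteins in a single copy, and their genes are known to be expressed at high levels and in step. Their mRNAs begin with a terminal oligopyrimidine tract, through which mTOR signalling controls their translation, and MYC raises the transcription of many of them. A few proteins have paralogues, among them RPL22 and RPL22L1, whose balance is known to matter for blood and lymphocyte development in mouse and zebrafish. The fish kidney is also the site of blood formation, and loss of some ribosomal proteins, RPS19 first among them, causes an anaemia in people.

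The libraries held 26864797 to 36624972 counts each. CHD8 stood at 55.5, 53.4 and 51.4 CPM (counts relative to library size, with TMM factors over the 18 libraries) in CV intestine, at 62.3, 57.6 and 62.7 in GF intestine and at 31.7, 34.2 and 41.3 in chd8-/- intestine. In kidney it was at 45.9, 51.2 and 51.6 in CV, at 53.8, 33.4 and 54.0 in GF and at 30.2, 34.8 and 39.1 in chd8-/-, so the library labelled kidney GF replicate 2 stood with the mutant libraries, and the library labelled kidney chd8-/- replicate 1 had the lowest value, as its label has it. On other genes outside the family both of these libraries went against their labels. Over the 316 genes called in chd8-/- intestine with a log2 fold change of at least 2 in either direction, the median log2 distance from the CV kidney mean, counted in the direction of the intestine difference, was 1.39 in the library labelled kidney GF replicate 2 and -0.00622 in the library labelled kidney chd8-/- replicate 1. It was 0.129 and 0.0445 in the other GF kidney libraries and 1.45 and 1.54 in the other chd8-/- kidney libraries. No library was moved to another group. Results for kidney include these libraries, and some of them, such as the members' medians, are also given without them. Among marker lists, intestinal epithelium genes summed to 18600 to 28300 CPM in intestine and 340 to 1680 in kidney. Kidney libraries were rich in muscle (44900 to 87300 CPM) and exocrine pancreas genes (52200 to 113000 CPM), and their nephron genes summed to 1500 to 2330 CPM against 2920 to 5030 in intestine, although 10 of 17 nephron genes were called higher and 4 lower in CV kidney than in CV intestine. Kidney CV replicate 1 stood apart by low skin (3710 against 13800 to 21700 CPM in the other kidney libraries) and high macrophage and neutrophil genes (905 against 256 to 408 CPM), and intestine GF replicate 3 by brain and retina genes (654 against 40.2 to 72.9 CPM in the other intestine libraries). In bulk samples such as these, fewer cells of a type and less RNA per cell cannot be told apart.

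Ribosomal protein genes together took 4.09 to 8.66% of all counts of a library. In CV intestine the share was 8.66%, 4.09% and 6.48% in replicates 1, 2 and 3 (6.41% ± 2.29, SD, n = 3), a 2.12-fold range. No other group was spread as widely. The share was 6.02%, 6.20% and 6.22% in GF intestine (6.15% ± 0.109), and 7.46%, 6.54% and 7.19% in chd8-/- intestine (7.07% ± 0.474). The intestine groups overlapped, because CV replicate 1 lay above and CV replicate 2 below all 6 other intestine libraries. In kidney the share was 6.28%, 6.09% and 5.91% in CV (6.09% ± 0.187), 6.57%, 6.32% and 6.70% in GF (6.53% ± 0.193) and 6.81%, 6.91% and 7.47% in chd8-/- (7.06% ± 0.356). The chd8-/- kidney libraries all lay above the CV and GF kidney libraries, and the lowest GF kidney library lay just above the highest CV library. This order rests on the labels. The libraries that went against theirs on other genes, GF replicate 2 and chd8-/- replicate 1, stood at 6.32% and 6.81%. The subunits moved largely together, with 1.38 to 1.55 counts of large subunit genes for each count of small subunit genes in every library. In intestine this ratio was 1.398, 1.413 and 1.38 in chd8-/-, below all CV (1.432, 1.552 and 1.508) and GF libraries (1.497, 1.445 and 1.438).

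**Figure D1:**
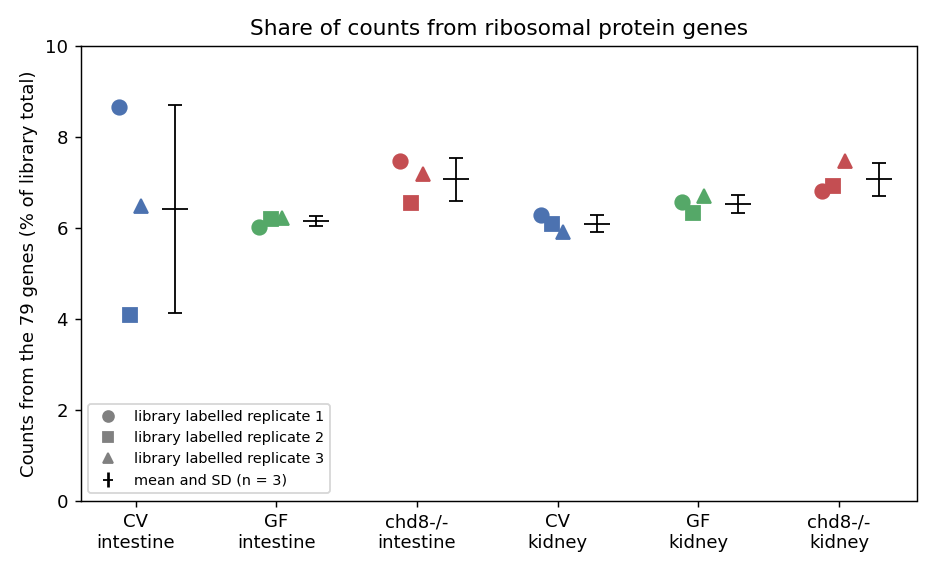
Share of a library's counts taken by the 79 ribosomal protein genes, in percent, for each of the 18 libraries by group, with the group mean and SD as bars. CV intestine runs from 4.09% to 8.66%, while each other group spans a range of at most 1.14-fold.

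The widest spread of the members within a group was that among the 3 CV intestine libraries, which are labelled as the same condition. CV replicate 2 was the lowest of the 9 intestine libraries for 70 of the 79 members, and CV replicate 1 the highest for 49. Between CV replicate 1 and CV replicate 2 the members' log2 ratio had a median of 1.28, was above 0 for 77 of 79 members and reached 1 or more for 58. Over 19105 genes the same ratio had a median of -0.00387, and 4.08% reached 1. CV replicate 3 lay between, with a median of 0.60 for replicate 1 over replicate 3 and of 0.72 for replicate 3 over replicate 2.

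The gap was not even over the family. RPS12, a small subunit protein, was at 552, 103 and 323 CPM in the CV intestine libraries, a log2 ratio of 2.41 between replicates 1 and 2. RPS21, RPL38 and the stalk protein RPLP1 had ratios of 2.39, 2.34 and 2.23. RPL18 and RPL4, large subunit proteins, had ratios of 0.49 and 0.53. Among the smallest ratios were those of members read at low levels, at -0.28 for RPL9 and -0.26 for rps11l, and those of RPL7L1 (0.20), a paralogue that in human cells works in ribosome assembly, and rps27l (0.38). Once each library was centred on its median member, the members' median SD in CV intestine on the log2 scale was 0.187, against 0.65 without centring. Centring takes out the movement the members share, so 0.187 cannot be set against the 0.265 of all genes, which were not centred. Centred in the same way, it was 0.175 in GF and 0.0946 in chd8-/- intestine, and 0.0794 to 0.107 in the kidney groups. Lists of translation factors and of mitochondrial ribosomal protein genes differed by less between the CV intestine libraries. A list of translation factors and some other genes, taken as carrying the same oligopyrimidine tract, summed to 29700, 22900 and 23700 CPM. The tract itself was not checked in these genes. Mitochondrial ribosomal protein genes summed to 1410, 1070 and 1040 CPM. Ribosomal protein genes listed under other symbols (among them RACK1, FAU, faub, rplp2l, rps27.1 and rps27.2) went with the family instead. They summed to 6220, 2400 and 3990 CPM, a gap about as wide as that of the members. The files give no measure of RNA quality, and its part in this spread was not tested.

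**Figure D2:**
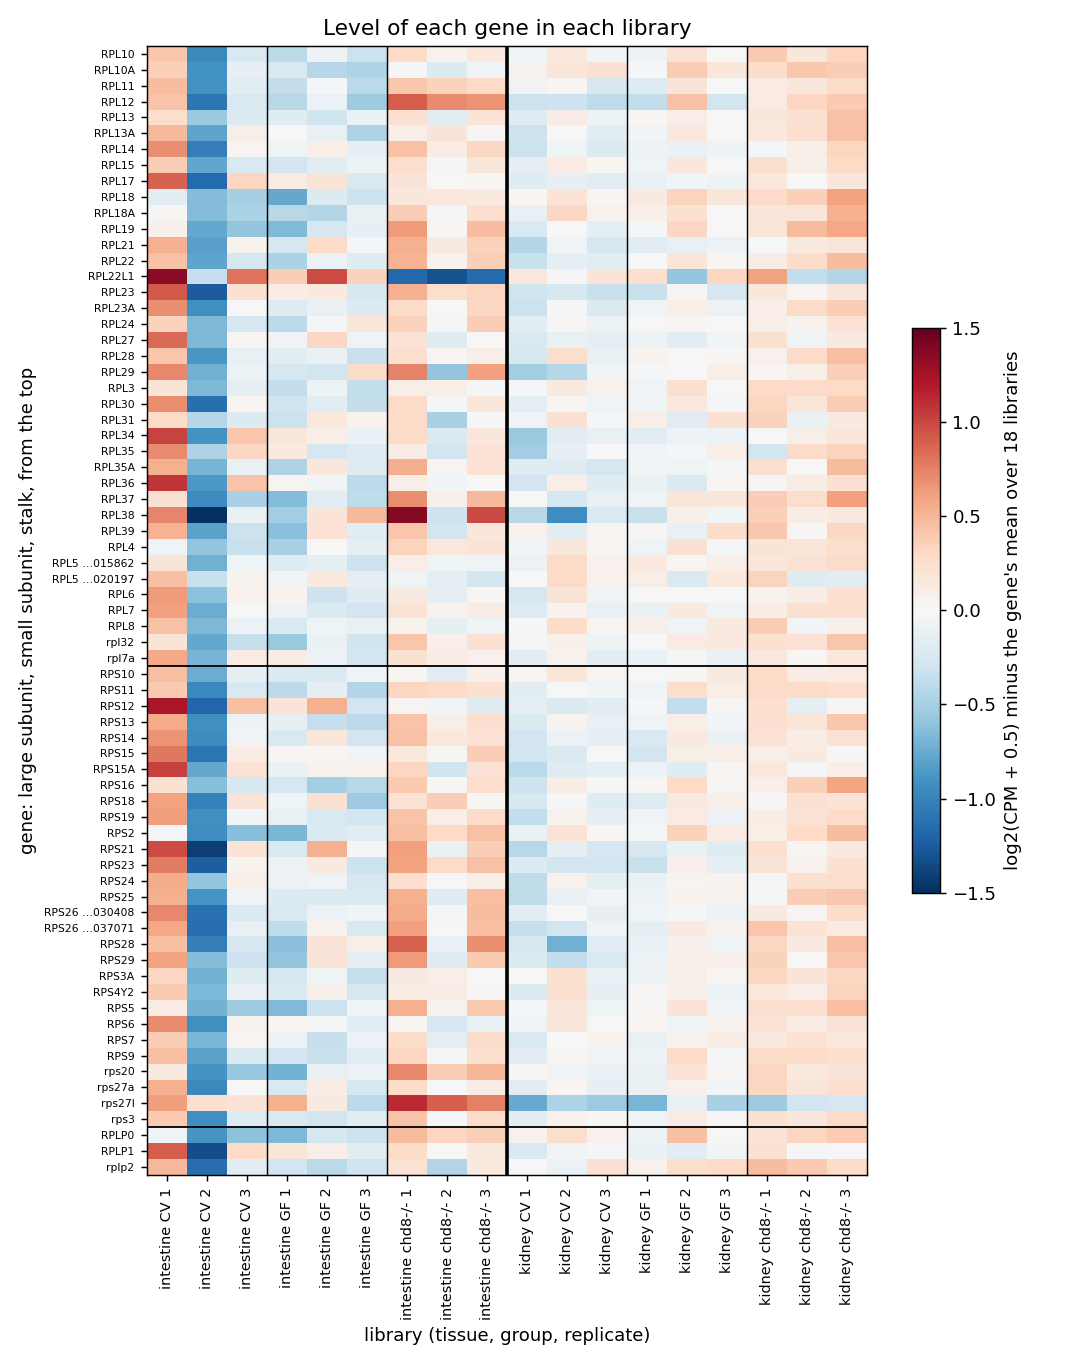
Log2 level of 71 of the 74 members with a mean count of at least 1000, each relative to its mean over the 18 libraries, with members in lines and libraries in columns by group. CV intestine replicate 1 is high and CV intestine replicate 2 low over nearly the whole family.

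In the other groups the members varied less, with a median SD on the log2 scale of 0.207 in GF intestine and 0.165 in chd8-/- intestine, and of 0.136, 0.117 and 0.118 in CV, GF and chd8-/- kidney. The median SD of all genes in these groups was 0.231, 0.172, 0.286, 0.273 and 0.31. Among the widest members outside CV intestine were RPL38, a large subunit protein known in mouse for its role in the translation of Hox mRNAs, RPL29 and RPS28. RPL29 ran from 173 to 438 CPM in chd8-/- intestine. RPL38 ran from 125 to 402 CPM in chd8-/- intestine, from 108 to 218 in GF intestine and from 81.4 to 132 in CV kidney. In GF and chd8-/- kidney RPL22L1 was among the widest members, with SDs of 0.498 and 0.583.

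Of the 79 members, 78 passed the filter on low counts in each comparison. RPL26, whose highest level was 0.343 CPM, never did. P-values here rest on the spread among these samples alone, and this may be technical, since the labels do not say that replicates came from separate clutches. CV libraries serve as the control of both the GF and the chd8-/- comparison of a tissue, so these comparisons are not independent. Members also tended to move together between libraries, so a count of members on the same side is not a count of separate observations.

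In germ-free intestine no member of the family differed from CV in edgeR's quasi-likelihood test at an adjusted p under 0.05. Of all 20954 genes tested, 0% were called, and an unadjusted p under 0.05 was reached by 5.96% of all genes and by 0 of the 78 members. The members' median log2 fold change was -0.11 (0.01 over all genes), with 62 members below 0 and 16 above. This direction depended on single CV libraries, as the median was 0.25 without CV replicate 1 and -0.38 without CV replicate 2. The lowest values belonged to the large subunit gene RPL36 (-0.52, SE 0.403, edgeR adjusted p = 0.85), RPL35 (-0.34) and RPS15A (-0.32), and the highest to rps11l (0.55), RPL38 (0.17) and RPS2 (0.16). The value of rps11l (SE 0.581) rests on low levels, with means of 1.7 CPM in CV and 2.49 in GF. RPL36 read 696, 182 and 446 CPM in CV and 340, 322 and 252 in GF, so the GF values lay within the CV range. For no member did the 3 GF libraries lie wholly above or below the 3 CV libraries.

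In germ-free kidney no member was called either (0% of 21120 genes). An unadjusted p under 0.05 was reached by 0 members and by 8.79% of all genes. The median log2 fold change was 0.08 (0.01 over all genes), and 65 of 78 members were above 0. In all, 7 members (8.97%) lay higher in all GF than in all CV libraries, against 7.40% of all genes. Among them were RPS28, RPL22 and RPS29. RPL22 was at 237, 270 and 268 CPM in CV and 299, 339 and 306 in GF kidney, with no overlap, and its log2 fold change of 0.28 had an edgeR adjusted p of 0.607. Among the highest values were those of RPL38 (0.40, SE 0.219, edgeR adjusted p = 0.611) and RPL29 (0.33). RPL38 was at 116, 81.4 and 132 CPM in CV kidney and 123, 164 and 151 in GF, so the groups overlapped. Among the lowest were RPL9 (-0.62), read at low means of 1.38 CPM in CV and 0.896 in GF, and RPL5 (ENSDARG00000020197; -0.11). The median was 0.07 without the library labelled kidney GF replicate 2, 0.04 without kidney CV replicate 1 and 0.03 without both. RPL12, at 0.30, moved to 0.02 without the library labelled kidney GF replicate 2, in which it read 1460 CPM against 833 and 893 in the other GF libraries.

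In chd8-/- intestine 2 members fell, among them the paralogue RPL22L1, and no member rose. Together they are 2.56% of the members tested, against 9.17% of the 20758 genes tested that were called. RPL22L1, which in mouse can take the place of RPL22 in the large subunit, was at 273, 83.9 and 187 CPM in CV intestine (181 ± 94.8, SD, n = 3), at 138, 211 and 136 in GF and at 46.8, 42.8 and 47.6 in chd8-/- (45.8 ± 2.56). Every chd8-/- library lay below every CV and GF library. Its log2 fold change against CV was -2.0 (SE 0.354, edgeR adjusted p = 0.00893), and it was called in all 15 alternatives run, with values from -2.34 to -1.57 and adjusted p-values of at most 0.0476.

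With library sizes taken from the members' own summed counts, so that each gene was set against the rest of the family, RPL22L1 stood at -2.19 (edgeR adjusted p = 0.000112).

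Its partner RPL22 was not called. RPL22 was at 406, 173 and 249 CPM in CV and 429, 311 and 383 in chd8-/- intestine (log2 fold change 0.42, SE 0.279, edgeR adjusted p = 0.392). The groups overlapped. As a share of the counts of its pair, RPL22L1 took 32.6 to 42.9% in CV intestine, 34.0 to 42.9% in GF and 9.85 to 12.1% in chd8-/-. The chd8-/- shares thus lay below all those of the other intestine groups. The pair RPL5, whose proteins join RPL11 and a small ribosomal RNA in the complex that binds MDM2, showed a smaller shift, with the copy ENSDARG00000020197 at 43.6 to 48.1% in CV, 44.2 to 46.2% in GF and 38.0 to 40.3% in chd8-/- intestine. Neither RPL5 gene was called against CV. ENSDARG00000020197 was at -0.26 (SE 0.221, edgeR adjusted p = 0.512) and ENSDARG00000015862 at 0.13 (edgeR adjusted p = 0.793). In the RPS26 pair the share of ENSDARG00000037071 was 20.8 to 28.2% over all 18 libraries. How reads that fit both copies of a pair were counted is not given in the sources used here, so levels of near-identical copies are uncertain.

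**Figure D3:**
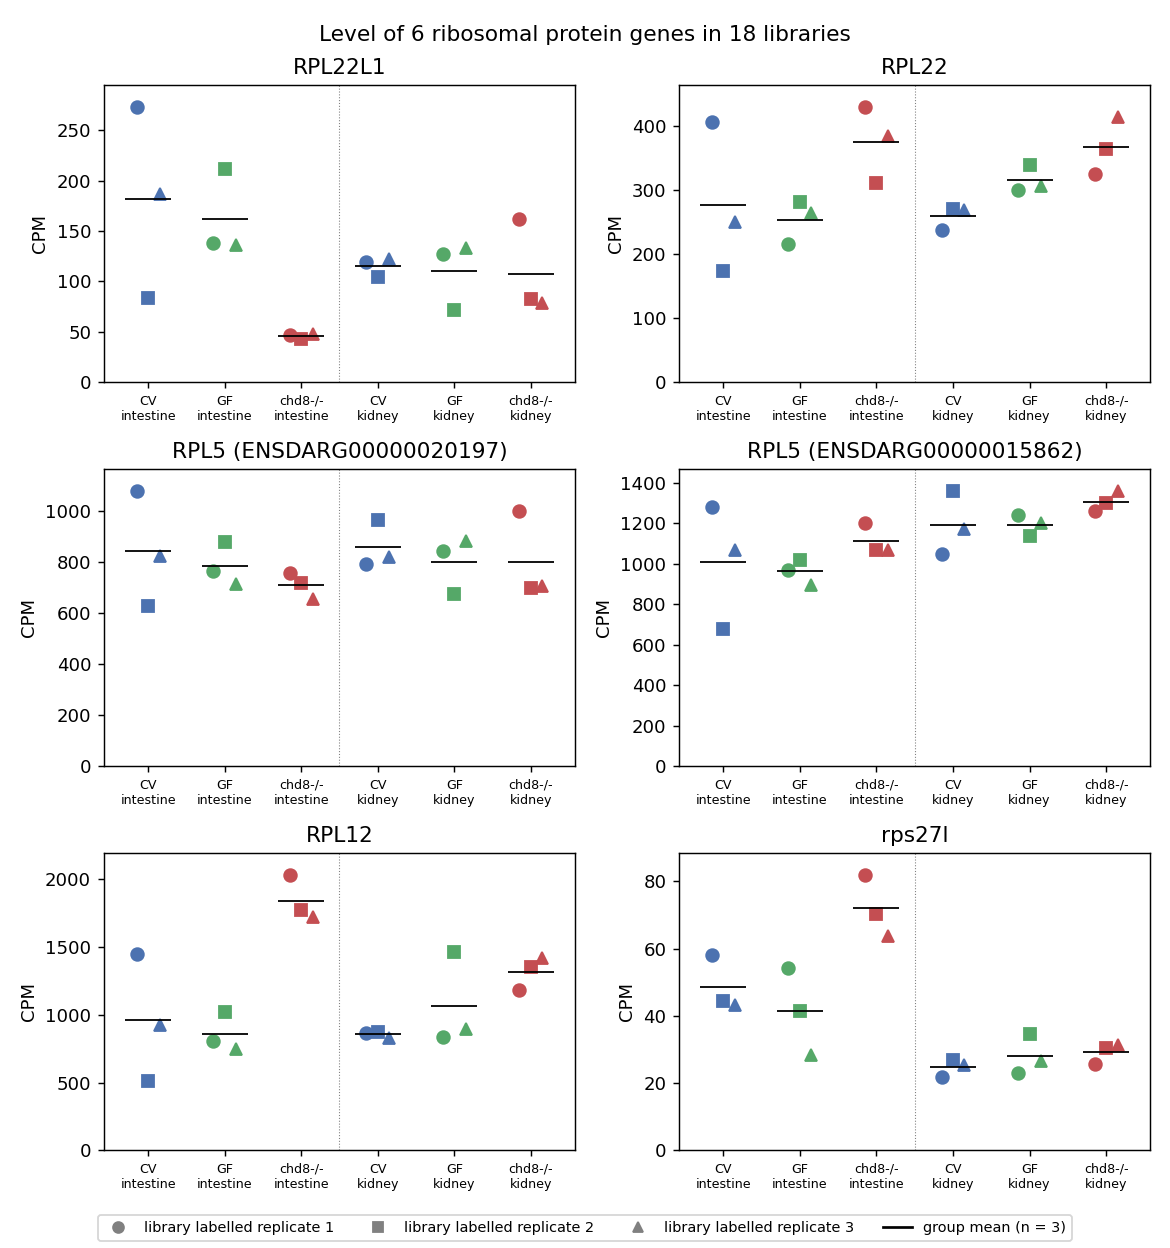
Levels in CPM of RPL22L1, RPL22, both RPL5 genes, RPL12 and rps27l in each of the 18 libraries by group, points for libraries and bars for group means. RPL22L1 is lowest in chd8-/- intestine and, in kidney, in the library labelled GF replicate 2 and in chd8-/- replicates 2 and 3.

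The rest of the family leaned upwards in chd8-/- intestine without passing the test. The median log2 fold change was 0.21 against -0.01 over all genes, with 63 of 78 members above 0: 32 of 41 large subunit genes (median 0.21), 29 of 34 small subunit genes (0.27) and 2 of 3 stalk genes (0.12). An unadjusted p under 0.05 was reached by 14 members, 12 of them higher, which is 17.9% against 24.6% of all genes. Of the members, 8 lay wholly above CV (10.3%, against 14.7% of all genes) and 2 wholly below (2.56%, against 15.6%). The highest members included RPL12, which sits at the base of the stalk, RPLP0, its core, RPS2 and rps20. RPLP0 read 3000, 1680 and 2030 CPM in CV intestine and 4310, 3870 and 3980 in chd8-/-, with no overlap (log2 fold change 0.84, SE 0.251, edgeR adjusted p = 0.0603). RPS2 was at 2500, 1330 and 1630 CPM in CV and 3480, 3130 and 3440 in chd8-/- (0.85, SE 0.256, edgeR adjusted p = 0.0633). The gene rps20 was at 650, 316 and 398 against 975, 764 and 835 (0.90, SE 0.261, edgeR adjusted p = 0.056), and RPL12 at 1450, 511 and 924 against 2030, 1770 and 1720 (0.92, SE 0.322, edgeR adjusted p = 0.104). Each of RPLP0, RPS2 and rps20 was called in 5 of 15 alternatives. The paralogue rps27l, which p53 induces in human cells, was at 58.0, 44.4 and 43.3 CPM in CV and 81.9, 70.3 and 63.7 in chd8-/- (0.55, SE 0.166, edgeR adjusted p = 0.0629). RPS18 and RPL13A, which are often used as reference genes, had log2 fold changes of 0.12 and 0.07. RPL11, RPS19, RPS29 and RPL3 stood at 0.44, 0.24, 0.33 and 0.20, RPL7L1 at 0.04, and RPS6, the substrate of S6 kinase, at -0.22.

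How many members were called depended on the CV intestine libraries. Without CV replicate 1, 14 members were called (8.95% of all genes), 13 of them higher, and the median was 0.63. Without CV replicate 2, 4 members were called, all lower (among them RPL22L1, RPL36 and RPS12; 14.3% of all genes), and the median was -0.03. With library sizes from the members' summed counts the 2 called members were those of the fit with TMM scaling. The median was then -0.03, but this scaling evens out the family's level by construction, so that median cannot show whether the family as a whole differed.

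Lists of other genes of translation were chosen with earlier results of these data known. They were called in chd8-/- intestine about as often as genes in general, of which 9.17% were called in either direction. Nearly all calls in these lists were higher, and the share of all genes called higher is not given here. Of 28 translation factors and other genes taken as carrying an oligopyrimidine tract, 3 rose and 0 fell (10.7%, median log2 fold change 0.26). One was EEF2, the elongation factor that moves the ribosome along the mRNA, at 121, 119 and 146 CPM in CV and 199, 199 and 200 in chd8-/- (0.62, SE 0.149, edgeR adjusted p = 0.0273). The others were EIF3F (0.80) and pabpc1b (0.56), a poly(A)-binding protein. Of 47 ribosome biogenesis genes 5 rose and 0 fell (10.6%), among them BYSL (0.84), BOP1 (0.75) and POLR1A (0.55), the large subunit of the polymerase that makes ribosomal RNA. Of 75 mitochondrial ribosomal protein genes 6 rose and 0 fell (8.0%), led by mrpl20 (1.74, edgeR adjusted p = 0.00167). Of 64 genes with a symbol of the eif kind, mostly initiation factors, 6 rose and 1 fell (10.9%). This list shares genes with other lists here, EIF3F and EIF4EBP3 among them, so the counts of the lists are not separate. The gene that fell was eif4a1b, an RNA helicase, at 454, 352 and 439 CPM in CV and 195, 203 and 188 in chd8-/- (-1.10, SE 0.17, edgeR adjusted p = 0.00307). Of 21 mTOR and MYC regulators 2 rose (9.52%), MYC (ENSDARG00000007241; 0.80, SE 0.19, edgeR adjusted p = 0.025) and EIF4EBP3, an inhibitor of translation initiation (0.82). Among 15 p53 targets, a list that also holds the member rps27l, 1 rose (6.67%), CCNG1 (0.81). None of the 7 ribosomal protein genes under other symbols was called, among them rps27.1 (-0.05), RACK1 (0.11), a scaffold on the small subunit, and FAU (0.04). Among markers of other cells in the same comparison, 18 of 31 proliferation genes fell (58.1%). That list summed to 579 to 822 CPM in CV and 435 to 475 in chd8-/-. Of 12 erythroid genes 7 fell (58.3%), with sums of 252 to 268 against 124 to 150 CPM. Exocrine pancreas genes summed to 20100 to 35600 CPM in CV and 32700 to 49000 in chd8-/-, which overlap, and 1 of 17 was called (5.88%). In the lists for macrophages and neutrophils, blood stem cells, muscle, and brain and retina 0 genes were called. In each of those for intestinal epithelium, nephron and skin 1 gene was called. The part of these cells in the members' values was not tested.

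**Figure D4:**
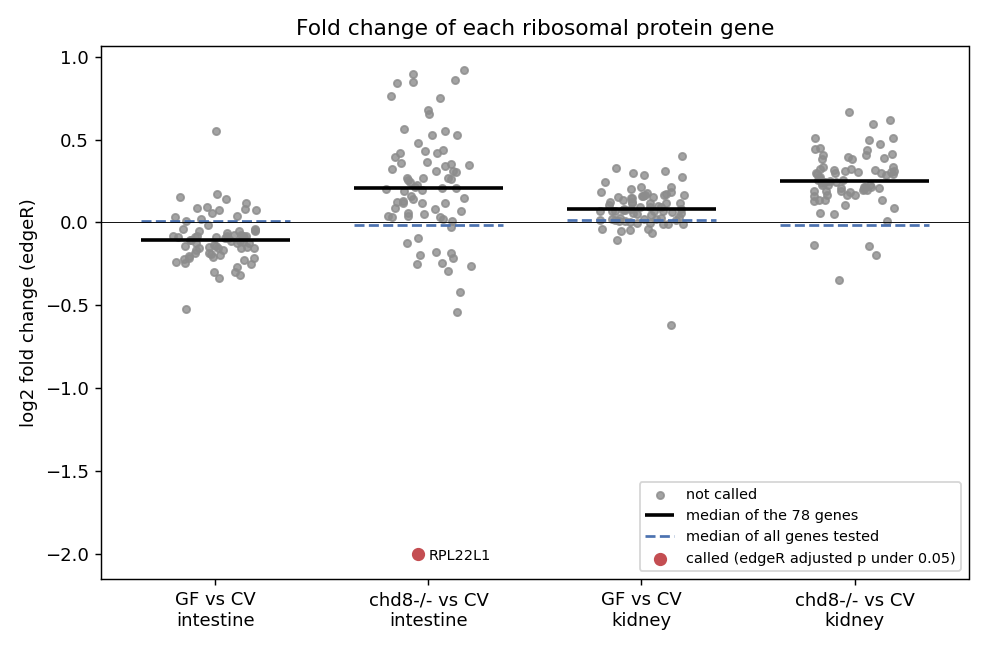
Log2 fold changes of 74 of the 78 members tested in each of the 4 comparisons with CV, one point a member, with the median of the 78 marked and called members in red. The median lies at -0.11 and 0.08 for GF intestine and kidney and at 0.21 and 0.25 for chd8-/- intestine and kidney, and RPL22L1 lies far below the rest in chd8-/- intestine.

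In chd8-/- kidney no member was called, and 0% of the 21060 genes tested were called. Most members nevertheless lay on the same side. The median log2 fold change was 0.25 against -0.01 over all genes, with 73 of 78 members above 0, and all 3 chd8-/- libraries lay above all CV libraries for 41 members (52.6%, against 8.10% of all genes) and below them for 0. Members moved together from library to library, so these 41 are not separate observations, and each group holds only 3 libraries. Kidney CV replicate 1 alone was the lowest kidney library for 44 members. An unadjusted p under 0.05 was reached by 12 members, all higher, which is 15.4% against 9.0% of all genes. Large and small subunit genes had medians of 0.25 and 0.26, and the 3 stalk genes 0.14. Leaving out single libraries kept the median between 0.20 and 0.31, and it was 0.30 without the library labelled kidney chd8-/- replicate 1. With library sizes from the members' own counts it was 0.02. That scaling holds the median near 0 by construction, so it cannot show whether the family as a whole differed.

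The highest values were those of RPL38, RPS28 and RPL12. RPL38 was at 116, 81.4 and 132 CPM in CV kidney, 123, 164 and 151 in GF and 199, 167 and 172 in chd8-/- (log2 fold change of chd8-/- against CV 0.67, SE 0.223, edgeR adjusted p = 0.475). RPS28 was at 148, 106 and 156 CPM in CV and 216, 191 and 238 in chd8-/- (0.62, SE 0.215, edgeR adjusted p = 0.478). RPL12 was at 866, 872 and 828 CPM in CV and 1180, 1350 and 1420 in chd8-/- (0.59, SE 0.172, edgeR adjusted p = 0.443). In each of these the groups did not overlap. Values of 0.51 for RPL37 and RPL19, 0.50 for RPS29, 0.41 for RPL13A and 0.30 for RPS19 were among the others above CV. The list of translation factors and other genes had a median of 0.08 (22 of 28 genes above 0). The mitochondrial ribosomal proteins stood at 0.11 (53 of 75) and the 7 ribosomal protein genes under other symbols at 0.18 (7 of 7), with none called. Taken singly, chd8-/- kidney replicates 1, 2 and 3 had 55, 59 and 68 of the 78 members above all CV libraries and 1, 7 and 4 below them, where 26.4 to 29.4% of all genes lay above and 27.0 to 30.3% below. GF kidney replicates 1, 2 and 3 had 19, 44 and 39 members above and 10, 13 and 4 below, where 27.4 to 28.7% of all genes lay above and 25.7 to 27.8% below.

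In kidney RPL22L1 differed between libraries of the same label. RPL22L1 was at 119, 104 and 122 CPM in CV kidney, at 127 and 133 in GF replicates 1 and 3 and at 71.3 in the library labelled GF replicate 2. In the library labelled chd8-/- replicate 1 it was at 162 CPM, and in chd8-/- replicates 2 and 3 at 82.3 and 78.3. So 3 libraries were low, and RPL5 (ENSDARG00000020197) was also lowest there, at 677, 699 and 708 CPM against 793 to 1000 in the other 6. The log2 fold change of chd8-/- against CV kidney was -0.14 for RPL22L1 (SE 0.285, edgeR adjusted p = 0.918). Without the library labelled chd8-/- replicate 1, RPL22L1 stood at -0.53 (edgeR adjusted p = 0.21), and 1 member of the family was called, lower in chd8-/-. The share of all genes called in that fit is not given here, so this count cannot show a change particular to the family. For GF against CV kidney RPL22L1 was at -0.06 (SE 0.258, edgeR adjusted p = 0.951), and at 0.185 without the library labelled GF replicate 2.

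Few members were called between kidney and intestine, although 37.2% of 21130 genes were called between the CV tissues. Members not called may still differ, since the members were spread widely among the CV intestine libraries. In CV 1 member was called, rps27l, lower in kidney at -0.96 (SE 0.192, edgeR adjusted p = 0.0036). It was at 58.0, 44.4 and 43.3 CPM in CV intestine and 21.9, 27.0 and 25.5 in CV kidney, without overlap. In chd8-/- it was lower too, at 81.9, 70.3 and 63.7 CPM against 25.8, 30.5 and 31.4 (-1.28, SE 0.154, edgeR adjusted p = 0.000376), and in GF the value was -0.53 (SE 0.257, edgeR adjusted p = 0.154), with GF intestine replicate 3 at 28.4 CPM. The median of all members was -0.07 in CV, and it was 0.29 without CV intestine replicate 1 and -0.36 without CV intestine replicate 2.

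In GF 6 members were higher in kidney (7.69%, against 35.1% of 21422 genes called in either direction). Among them were RPL18 (0.65), RPL10A (0.58), the stalk gene rplp2 (0.58) and RPS16 (0.54), with edgeR adjusted p-values from 0.0163 to 0.0313. Of 14 alternatives, RPL18 and rplp2 were called in 10 each, RPL10A in 8 and RPS16 in 7. The gene rplp2 was at 267, 246 and 264 CPM in GF intestine and 341, 390 and 401 in GF kidney. In GF kidney 34 members (43.6%) lay wholly higher than in GF intestine, against 23.3% of all genes. Without the library labelled kidney GF replicate 2, 5 members were called and the median moved from 0.22 to 0.17. In chd8-/- 4 members were called, against 37.0% of 20902 genes. RPL22L1 (1.25, SE 0.278, edgeR adjusted p = 0.00829) and RPL10A (0.45, edgeR adjusted p = 0.0347) were higher in kidney, and rps27l and RPL12 (-0.46, edgeR adjusted p = 0.0432) were lower. RPL22L1 and rps27l were called in all 14 alternatives, RPL12 in 7 and RPL10A in 5. Without the library labelled kidney chd8-/- replicate 1, 6 members were called and RPL22L1 stood at 0.83. The shares of all genes called with these libraries left out are not given here. Such counts therefore cannot show a change particular to the family. Over the 3 groups, 28 of the 78 members were higher in kidney in each and 10 lower in each. The same counts over all genes are not given here, so these cannot show a trait of the family. In CV the sign of the members' median also changed with the intestine library left out. Outside the family by symbol, faub, a gene for the ubiquitin-like fusion that gives a small subunit protein, was lower in kidney in all 3 groups (-2.45, -2.32 and -2.15, edgeR adjusted p at most 0.000212). FAU was called in none of the 3 groups (-0.10 in CV and 0.26 in GF).

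**Figure D5:**
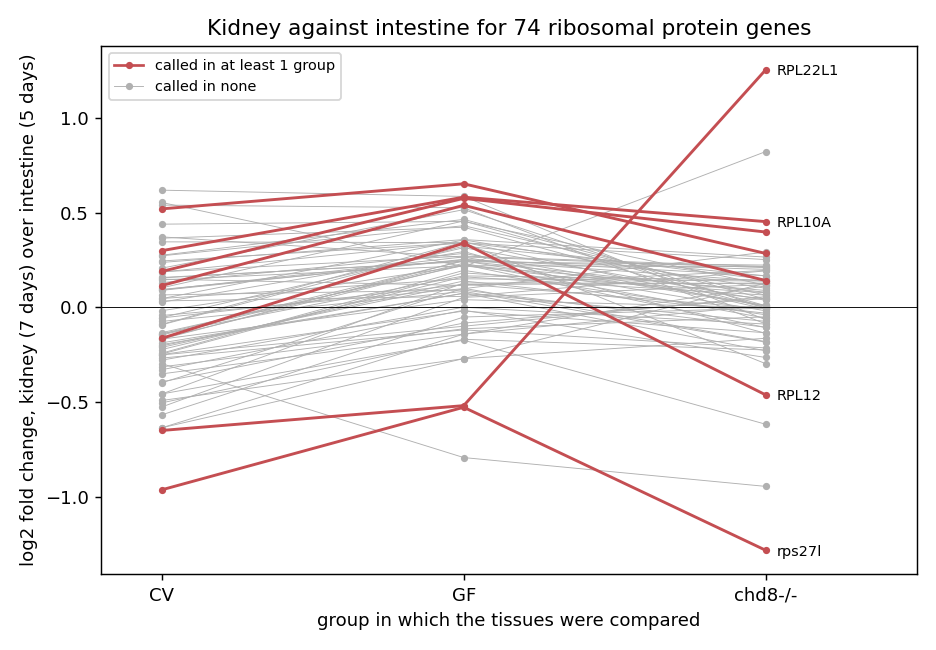
Log2 fold change of kidney against intestine for 74 of the 78 members in CV, GF and chd8-/-, one point a member, with members called in at least 1 group in red. Most members lie within 0.5 of 0, rps27l lies below 0 in all 3 groups, and RPL22L1 lies below 0 in CV and GF and at 1.25 in chd8-/-.

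The difference of the response between the tissues was tested for each member in 1 fit over both tissues. For germ-free rearing 0 members and 0% of 22368 genes were called, and an unadjusted p under 0.05 was reached by 0 members and 5.77% of all genes. The members' median difference of kidney minus intestine was 0.25, which ranged from -0.12 to 0.54 when single libraries were left out. For chd8-/- 0 members were called (1 with DESeq2, RPL22L1, and 0 with voom), against 0.153% of 22203 genes, and 1 member, RPL22L1, against 9.89% of all genes had an unadjusted p under 0.05. RPL22L1 had the largest difference among the members, at 1.89 (SE 0.507, edgeR adjusted p = 0.221), and its values over the 20 alternatives ran from 1.47 to 2.24 with adjusted p-values from 0.0249 to 0.478. So the fall of RPL22L1 in intestine was not shown to differ from its value in kidney.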

How the data were processed

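RNA-seq libraries of zebrafish intestine and kidney were analysed from the counts of reads per gene that the authors deposited, in 4 tables that each pair CV with 1 other group of a tissue. STAR 2.7.9a, featureCounts, Subread 2.0.1, Trim Galore 0.6.7 and FastQC 0.11.9 were used on the build GRCz11, per the submitters' processing notes. Which annotation release was used, whether strand was counted and how reads matching more than 1 gene were handled is not given in the sources used here, so levels of near-identical copies and overlapping genes are uncertain. A table of gene names gave 29201 of the 32520 identifiers a symbol.

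The CV columns of the kidney tables were identical. Those of the intestine tables were the same 3 libraries under other numbers: replicates 1, 2 and 3 of the chd8-/- table match replicates 2, 3 and 1 of the germ-free table, with absolute differences of 0.228, 0.0745 and 0.0774% of the total count. The germ-free numbering is used where these libraries are named in the text, and each comparison with CV used the columns of its own table. Replicates of a group differed by more than sampling noise (chi-square per degree of freedom at least 16.5).

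Each comparison was fitted over all genes with edgeR 4.0.16 in R 4.3.3 (filterByExpr, TMM, robust quasi-likelihood F-test, no block), p-values were adjusted by Benjamini-Hochberg over all genes tested, with calls made at an adjusted p under 0.05. Positive log2 fold changes mean higher in GF, in chd8-/- or in kidney, and SEs are its size over the square root of F. Within-group SDs used log2(CPM + 0.5). Groups were said not to overlap where all 3 libraries of one lay above all 3 of the other. Alternatives used DESeq2 1.42.0, limma 3.58.1 (voom), other scalings and filters, a replicate block and each library left out. The fit was tested on simulated data, with outcomes not reported here. Those counts were drawn separately for each gene and lack the movement that the members share between libraries. The simulation therefore cannot show how the fit treats that movement. Figures were drawn in Python 3.11.15 with matplotlib 3.10.9.

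The members and all gene lists were chosen with earlier results of these data known. Members named are all those called (up to 5 a direction), or the 3 highest and 3 lowest where none was called, those sharing a symbol, and a set of well-known members. Members named by non-overlap, by spread or by their pair were chosen after their values were seen. Some members are counted with the family but not reported here by name. No sequences are shown.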

Additional observations from a re-analysis of the deposited data

How the results depend on the processing

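The 2 members called in chd8-/- intestine became 13 with DESeq2, 5 with limma voom, 5 with no filter and 4 with all 3 groups of the tissue in 1 fit, and 1 to 14 when single libraries were left out. In chd8-/- kidney, where 0 were called, leaving out libraries gave 0 to 1. Between kidney and intestine, the 1 member called in CV became 0 with library sizes from the members' counts and 3 with DESeq2, and 1 to 9 when libraries were left out. The 6 called in GF became 2 with library size only, 2 with library sizes from the members' counts, 12 with DESeq2 and 10 with voom, and 1 to 5 when libraries were left out. The 4 called in chd8-/- became 2 with no filter, and 2 to 6 when libraries were left out. For the tissue difference of the chd8-/- response the 0 became 1 with DESeq2. GF against CV gave 0 in intestine and in kidney, and 0 for the tissue difference, in all 15, 16 and 20 alternatives. For most alternatives, here and above, the share of all genes called is not printed beside the members' count. Such a count cannot show a change particular to the family. One alternative, leaving out kidney CV replicate 1 and the library labelled kidney GF replicate 2 together, was chosen after seeing the data. With the replicate block, 7 members were called between the GF tissues and 2 between the chd8-/- tissues (6 and 4 without it), and the block moved no other count. In none of the 7 comparisons of 2 groups did all 3 pairs of libraries with the same number deviate together (correlations -0.186 to 0.0109 against CV, -0.165 to 0.28 between the tissues), so the numbers were not taken to pair the samples. Of the values of named members under the alternatives, 52 lost a call, 19 gained one and 0 changed the sign of a called value, and the cause was not tested. A mean count under 1000 was found for 5 members (among them RPL26, RPL9, rps11l and RPL7L1), and why they read low was not tested.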
